A study of Mus musculus with 12 samples.

Results

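The AP-1 transcription factor genes Fos, Fosb, Fosl1, Fosl2, Jun, Junb and Jund were followed in mouse striatum after methamphetamine, at the level of their RNA and of the RNA fragments bound by hnRNP H. They were chosen by symbol, and all 7 were found among the 18208 genes of the RNA-seq table. Together they held 34 of the 147438 counted positions of hnRNP H binding, each 100 nt long. RNA was measured in bulk tissue, so fewer cells of a type and less RNA per cell cannot be told apart.

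All animals were wild-type C57BL/6J mice of postnatal days 50 to 100, bred from fathers heterozygous for a mutation of Hnrnph1 and C57BL/6J mothers. Every mouse was injected with saline on days 1 and 2. On day 3 the saline group received saline again (10 ml/kg, i.p.) and the other group received methamphetamine (2 mg/kg, i.p.), a psychostimulant that releases dopamine, and whole striata were taken 30 min later. Each treatment had 3 pools of striata from 4 mice (2 females and 2 males), and each pool gave 1 CLIP-seq library and 1 RNA-seq library. CLIP-seq sequences the RNA that stays attached to a protein after cross-linking and precipitation, here with an antibody to hnRNP H, an RNA-binding protein that recognises runs of G and acts in splicing. The libraries are called saline 1 to 3 and methamphetamine 1 to 3, and lists of 6 values below follow that order.

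Fos and Jun proteins carry a basic leucine zipper and bind DNA as dimers called AP-1, which read the sequence TGACTCA and its close relatives. Fos proteins need a Jun partner, whereas Jun proteins can also pair with each other. Fos, Fosb and Junb are classical immediate-early genes of striatal neurons: dopamine and glutamate receptors act through kinases on CREB and SRF, which are already bound at their promoters, and AU-rich elements in their mRNAs make the response brief. Jund is expressed more steadily. Fosb also gives the truncated splice form ΔFosB, which accumulates in the striatum with repeated drug exposure, and counts per gene cannot separate it from full-length Fosb.

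The bound sequences are shown first because they are what the CLIP values below refer to. Of the 34 positions, 17 lay within 1 exon, so that their sequence could be read from GENCODE M21 transcripts, and 12 of these 17 (70.6%) held a run of at least 3 G. Among all 24074 such positions of the table the share was 70.9%. A run of at least 4 G was present in 9 of the 17 (52.9%), against 36.5% of all such positions, and the median G content was 28.0% against 25%. The windows below are 30 nt of each position around its longest G run, 5′ to 3′ on the transcribed strand of GRCm38, with runs of 3 or more G in capitals. Shown are the Jun and Fosl2 positions that carried the most reads or stood in a list of the authors, and a Junb and a Jund position for comparison.
Jun 3′ UTR, chr4:95049835-95049864: aaagcaGGGaGGGctGGGaaGGGGGGGGag
Jun 3′ UTR, chr4:95049805-95049834: gcttgtaagtgccaggctagactgcagatg
Fosl2 5′ UTR, chr5:32136272-32136301: gccctgagagatcGGGGaGGGagtccccca
Junb 3′ UTR, chr8:84977107-84977136: aGGGaGGGGagaaGGGGGctgtcgcggcgg
Jund coding exon, chr8:70699520-70699549: gcggccaccgcggccacctcaGGGGctccc
The first Jun window holds a run of 8 G, the longest among the 17 positions. The second Jun window comes from the neighbouring position toward the 3′ end, whose longest run was 2 G. These 2 windows adjoin, so the run of 8 G ends just before the second one begins.

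Promoter sequence is shown for the genes whose promoter held TGACG, the core of the CREB site, because CREB is a known regulator of immediate-early genes. RefSeq's promoter table (GRCm38.p6) held 6 of the 7 genes, all but Fosl1. TGACG was searched on both strands in the 250 bases before the start and was found in 3 of the 6 (Fos, Fosb and Junb), against 17.8% of 32851 promoters. Capitals mark the motif.
Fos, 66 bases before the start, chr12:85473812-85473840: agttccgcccagTGACGtaggaagtccat
Fos, 129 bases before the start, chr12:85473749-85473777: ggggcgtagagtTGACGacagagcgcccg
Fosb, 60 bases before the start, chr7:19310089-19310117: tggagttgcgggTGACGcaagcgcggggg
Junb, 106 bases before the start, chr8:84978838-84978866: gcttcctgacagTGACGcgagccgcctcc
Fos alone held the motif at 2 places. The AP-1 site itself (TGACTCA or its complement TGAGTCA) was in 0 of the 6 windows and in 4.46% of all promoters. TATAAA, the TATA box, was in the Fos window alone and in 12.4% of all promoters. A match of letters is a description of the sequence and not a measured binding site.

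RNA-seq libraries held 3935160 to 5091839 recovered reads and CLIP libraries 423057 to 1635338 reads in counted positions. The first principal component of the RNA libraries carried 65.6% of the variance and split them into a set A (saline 1, saline 3 and methamphetamine 2) and a set B (saline 2, methamphetamine 1 and methamphetamine 3), and the CLIP libraries fell on the same sides. Summed striatal projection neuron markers (12 of 12 detected, none at 0 in any library) stood at 8670 to 10000 CPM in set A and at 6510 to 7490 CPM in set B. Summed cortical excitatory neuron markers (11 of 12 detected, none at 0) stood at 226 to 503 CPM in set A and 546 to 977 CPM in set B. The first sum was 7490 to 10000 CPM after saline and 6510 to 8670 CPM after methamphetamine, and the second 226 to 685 and 503 to 977 CPM. By gene, 12 of 12 striatal markers had a negative change with methamphetamine (median -0.226 on the log2 scale) and 10 of 11 cortical markers a positive one (median 0.347). Tbr1 was the 1 of 11 cortical markers past an unadjusted 0.05 in limma, at 0.98 ± 0.37 (SE), beside 1.52% of all genes. All 6 astrocyte markers were positive (median 0.178; summed 2220 to 3310 CPM after saline and 2280 to 3500 after methamphetamine). So were all 6 oligodendrocyte markers (median 0.422; 4850 to 11900 and 7680 to 11800 CPM) and all 6 microglia markers (median 0.091; 209 to 252 and 213 to 286 CPM), and these sums overlapped between treatments. Choroid plexus markers (12 of 12 detected, with Kcne2, Sostdc1 and Cldn2 at 0 in at least 1 library) summed to 5380 CPM in methamphetamine 2 and to 150 to 291 CPM in the other 5 libraries. Of these 12 markers 11 had a positive change (median 1.236). Enpp2 (1.39 ± 0.42, SE) and Folr1 (2.47 ± 1.08, SE) lay above saline in all 3 methamphetamine libraries, 2 of 12 beside 2.44% of all genes. Both also passed an unadjusted 0.05 in limma, again 2 of 12, beside 1.52% of all genes. No marker passed the adjusted threshold in limma. The part of tissue composition in the results below was not tested.

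Fos RNA was higher in every methamphetamine library than in every saline library, and it was the only member whose groups did not overlap. Its mean level went from 4.50 ± 0.24 to 5.38 ± 0.37 log2 CPM (SD, n = 3 pools each), a 1.84-fold difference. Junb, Jun and Fosb, the other members known for early induction, did not separate by treatment, and neither did Fosl1, Fosl2 and Jund. Over the 7 genes the median change was 0.00 on the log2 scale, beside 0.002 over all 18208 genes.

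Fos (ENSMUSG00000021250, chr12:85473890-85477273, plus strand, 4 exons in the main transcript) encodes the short-lived founding member of the family. Its level was 4.64, 4.22, 4.64, 5.16, 5.17 and 5.81 log2 CPM, from 88, 88, 100, 179, 157 and 290 reads. The saline libraries lay close together, and methamphetamine 3 stood highest. The change was 0.88 ± 0.23 (SE; 95% interval 0.35 to 1.41), and the adjusted p in limma was 0.9998. The exact two-sided permutation test over the 6 libraries gave p = 0.1, the smallest value that 3 against 3 allows. Fos ranked 10 by p among all genes and 17 by size of increase among the 7853 genes with a mean of at least 4 log2 CPM. Without methamphetamine 3 the change was 0.67, and without methamphetamine 2, the library rich in choroid plexus markers, it was 0.99. Within set A Fos differed by 0.53 and within set B by 1.26, each value resting on 1 library against 2.

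Fosb (chr7:19302696-19310051, minus strand), whose product can replace Fos in the dimer, was at 5.57, 4.96, 5.21, 4.70, 5.24 and 5.81 log2 CPM. The methamphetamine libraries spanned the whole range of the saline ones, with the lowest and the highest value of the 6. The change was 0.00 ± 0.29 (SE; 95% interval -0.65 to 0.65). Methamphetamine 3 gave 290 Fosb reads, the same number as for Fos in that library. The promoters of both genes hold TGACG, as shown above, and the difference between their changes was not tested.

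Fosl1 and Fosl2 encode Fra-1 and Fra-2, Fos relatives without the strong transactivation domain of Fos. Fosl1 (chr19:5447547-5455946, plus strand) was the lowest member, at 3.94, 2.64, 3.73, 2.70, 3.28 and 1.27 log2 CPM. Methamphetamine 3 rested on 12 reads and the other 5 libraries on 29 to 54. Its mean was 3.44 ± 0.70 after saline and 2.42 ± 1.03 after methamphetamine (SD, n = 3), a change of -1.02 ± 0.54 (SE; 95% interval -2.24 to 0.20; limma adjusted p = 0.9998). That value depended on methamphetamine 3, without which it was -0.45, and the groups overlapped. It passed an unadjusted 0.05 in limma without methamphetamine 2 and without saline 2, and in neither case an adjusted one. Fosl1 overlaps Ccdc85b on the opposite strand, and strand use in counting is not given in the sources used here.

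Fosl2 (chr5:32135801-32157842, plus strand) was at 6.61, 5.56, 6.84, 5.52, 6.43 and 6.43 log2 CPM. Saline 2 and methamphetamine 1 stood about equally low, and the other 4 libraries lay within 6.43 to 6.84. The change was -0.21 ± 0.36 (SE; 95% interval -1.02 to 0.60).

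**Figure D1:**
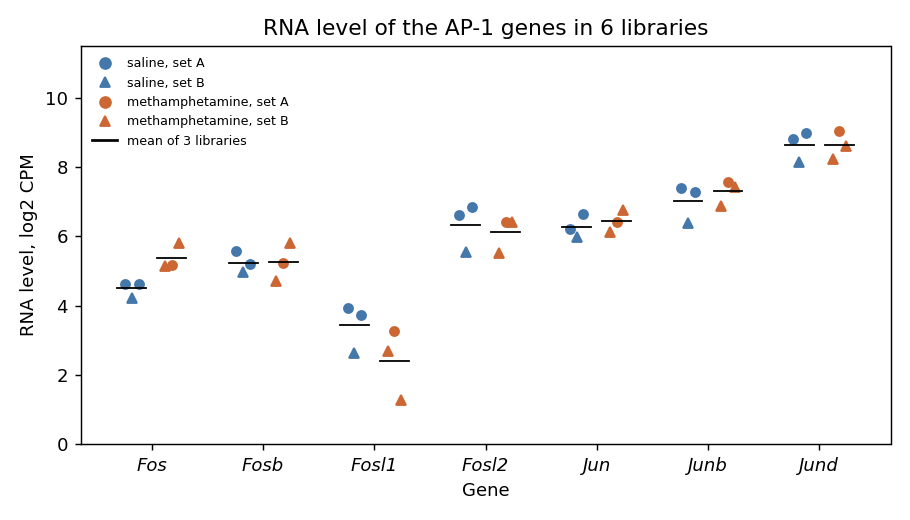
RNA level of the 7 genes on the y axis in log2 CPM, 1 point per library, by treatment (colour) and library set (shape), with the mean of 3 libraries as a line. Fos is the gene whose 3 methamphetamine points (5.16 to 5.81) all lie above its saline points (4.22 to 4.64), and Fosl1 has the widest spread.

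The 3 Jun genes each have 1 exon in the main transcript, the one with the longest coding part. Each overlaps another gene on the opposite strand (Junos at Jun, Prdx2 at Junb, Gm11175 at Jund), so their counts carry the same limit of strand. Jun (chr4:95049034-95052222, minus strand), the main activating partner of Fos, was at 6.21, 5.99, 6.65, 6.13, 6.42 and 6.75 log2 CPM. Its groups overlapped over most of their range, with a change of 0.15 ± 0.22 (SE; 95% interval -0.36 to 0.65).

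Junb (chr8:84974484-84978718, minus strand), a weaker activator that can restrain Jun, was at 7.41, 6.38, 7.29, 6.89, 7.58 and 7.44 log2 CPM. Saline 2 was the lowest library and methamphetamine 2 the highest. The change was 0.27 ± 0.29 (SE; 95% interval -0.38 to 0.93), and it was -0.05 without saline 2.

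Jund (chr8:70698949-70700616, plus strand), the steadily expressed partner, was at 8.80, 8.16, 8.98, 8.24, 9.03 and 8.61 log2 CPM. The 3 highest values were those of set A. The change was -0.02 ± 0.27 (SE; 95% interval -0.63 to 0.58), and it was 0.06 when reads were scaled to plain library totals.

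Exact two-sided permutation tests gave p between 0.3 and 1.0 for the other 6 members. Of the 7 members, 1 had all methamphetamine values above saline and 0 had them all below, where 2.44% and 3.58% of all genes did. An unadjusted limma p under 0.05 was reached by 1 of 7 members and by 1.52% of genes (101 higher and 175 lower). No gene passed the adjusted threshold of 0.05 (0.00%): limma called 0 of 18208 with 276 at an unadjusted p under 0.05. After a count filter that left 13299 genes, edgeR on recovered reads called 0 with 109, and DESeq2 called 0 with 81.

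Several members followed the library sets more than the treatment. Set A minus set B was 1.45 for Fosl1, 0.79 for Fosl2, 0.60 for Jund and 0.52 for Junb on the log2 scale, but 0.18 for Fosb, 0.14 for Jun and -0.25 for Fos. All set A libraries lay above all set B libraries for Fosl1 (3.28 to 3.94 against 1.27 to 2.70) and Jund (8.80 to 9.03 against 8.16 to 8.61), as for 18.9% of genes. With plain library totals the median of all genes moved from 0.026 to -0.17 in this contrast. The member values then were 1.25 for Fosl1, 0.60 for Fosl2, 0.40 for Jund, 0.33 for Junb, -0.01 for Fosb, -0.06 for Jun and -0.45 for Fos, so the sign of Fosb and Jun turned with the scaling.

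With the set as a covariate, Fos differed by 0.90 ± 0.22 (SE; 95% interval 0.40 to 1.40) and Junb by 0.50 ± 0.18 (SE; 95% interval 0.09 to 0.92). Both had an adjusted p of 0.9993, and 0.00% of genes passed the adjusted threshold in that fit (0 calls in limma, with 541 genes at an unadjusted p under 0.05). Jund changed sign to 0.20 ± 0.15 (SE) and Fosl2 to 0.06 ± 0.25 (SE). Fosl1 stayed negative at -0.60 ± 0.37 (SE). In that fit 6 of the 7 members were positive and 2 had an unadjusted p under 0.05, a level reached by 2.97% of all genes.

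Within both sets the methamphetamine values of Fos, Junb and Jund lay above the saline values, which was so for 3 of 7 members and 7.73% of genes. Junb differed by 0.23 in set A and 0.78 in set B, and Jund by 0.14 and 0.26. Jun differed by -0.01 and 0.45, Fosb by -0.15 and 0.30, Fosl2 by -0.30 and 0.41, and Fosl1 by -0.55 and -0.66. Each such value sets 1 library against 2, and the sets were defined from these same RNA libraries.

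**Figure D2:**
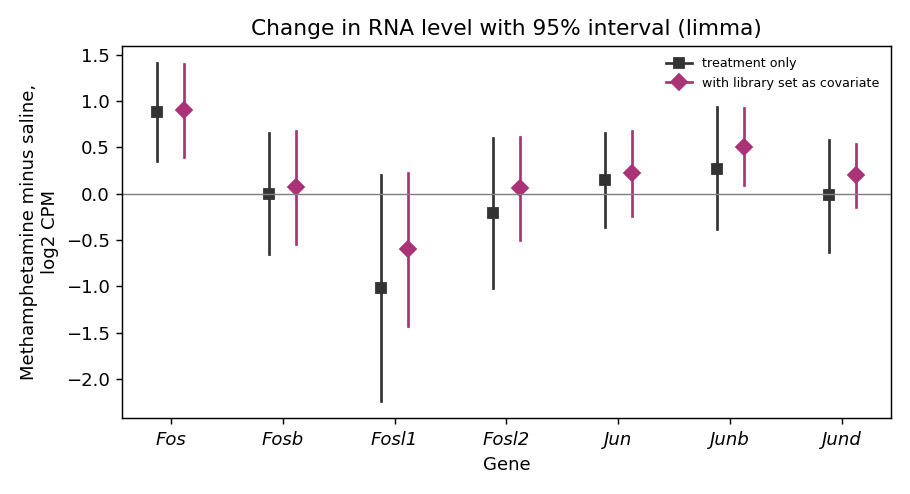
Change in RNA level (methamphetamine minus saline, log2 CPM) for each gene on the x axis, with its 95% interval from limma, for the fit on treatment alone (squares) and with the library set as a covariate (diamonds). The Fos intervals lie above 0 in both fits, and the Junb interval (0.09 to 0.92) lies above 0 with the covariate.

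Levels were compared between genes per kb of exon. In saline the order was Jund at 7.91 ± 0.43, Junb at 5.83 ± 0.56, Jun at 4.61 ± 0.34, Fos at 3.27 ± 0.24, Fosl2 at 3.06 ± 0.68, Fosb at 2.61 ± 0.31 and Fosl1 at 2.41 ± 0.70 log2 CPM per kb (SD, n = 3). The ranges of Jund, Junb, Jun and Fos did not touch their neighbours from Jund down to Fos, whereas those of Fos and Fosl2, Fosl2 and Fosb, and Fosb and Fosl1 overlapped. All 3 Jun genes therefore stood above all 4 Fos genes in saline. After methamphetamine Fos was at 4.15 ± 0.37 log2 CPM per kb (SD, n = 3), overlapping Jun (4.76 ± 0.31) and no longer overlapping Fosl2 (2.85 ± 0.53). Fosb was then at 2.61 ± 0.55 and Fosl1 at 1.39 ± 1.03 log2 CPM per kb, each overlapping the gene above it.

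The profiles of the members over the 6 libraries were compared by their root-mean-square distance after centring, on the log2 scale. The closest pair was Junb and Jund at 0.207, followed by Fosl2 and Jund at 0.241 and Jun and Jund at 0.266. Fos was closest to Jun, at 0.402, and farthest from Fosl1, at 1.27. Among genes with a mean of at least 4 log2 CPM the 5 nearest to Fos were Dlx1 (0.205), Arc (0.225), Plekha7 (0.225), Whrn (0.27) and Dnase2a (0.275), against a median distance of 0.54. Arc, an immediate-early gene of the synapse, was at 8.01, 7.48, 7.97, 7.98, 8.24 and 8.64 log2 CPM, a change of 0.47 ± 0.22 (SE) with overlapping groups. Dlx1, a homeobox gene of forebrain GABA neurons, differed by 0.51 ± 0.25 (SE). Both, with the other 3, were picked for a profile near that of Fos, which includes its difference by treatment, so their changes follow from the choice and are given as a description. These distances describe 6 libraries that share depth and library set.

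The genes around AP-1 were taken as lists. Of 19 genes of basic leucine zipper proteins that can partner Fos or Jun, 0 were higher and 1 was lower at an unadjusted p under 0.05, with a median change of -0.013; over all genes 1.52% passed in either direction and the median was 0.002. That gene was Batf3, at -1.24 ± 0.50 (SE; limma adjusted p = 0.9998) from 6 to 23 reads per library. Atf4, the stress-response partner, was at 4.64, 5.56, 3.93, 5.71, 4.70 and 5.47 log2 CPM, with all set A values below set B. Its change was 0.58 ± 0.41 (SE).

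Among 16 kinases upstream of AP-1 (the ERK, JNK and p38 MAP kinases, their activators, RSK, MSK and protein kinase A), 0 were higher and 1 was lower at an unadjusted p under 0.05, again beside 1.52% of all genes, with a median of 0.04. Rps6ka3, which encodes RSK2, an ERK-activated kinase of CREB and Fos, was at 5.65, 5.94, 5.48, 5.16, 5.45 and 4.79 log2 CPM. Every methamphetamine value lay below every saline value, with a change of -0.56 ± 0.22 (SE; limma adjusted p = 0.9998). Rps6ka5 (MSK1, a nuclear CREB kinase) was likewise below in all libraries, at -0.27 ± 0.16 (SE). Such separation downward was seen for 2 of the 16 kinases, beside 3.58% of all genes.

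Of 17 measured factors that act at immediate-early promoters, 0 passed an unadjusted 0.05 in either direction, beside 1.52% of all genes. Their median was -0.059. Elk4, an SRF partner, lay above saline in every methamphetamine library by 0.23 ± 0.16 (SE). It was the 1 of 17 that did, beside 2.44% of all genes. Of 14 factors of AU-rich mRNA decay and stability 0 passed, again beside 1.52% of all genes, with a median of 0.088. Zfp36 (tristetraprolin, which speeds the decay of AU-rich mRNAs) was at -0.49 ± 0.27 (SE).

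Of 18 genes linked to Fos or FosB in striatum 0 passed, beside 1.52% of all genes, with a median of -0.015. Bdnf, a neurotrophin, lay above saline in every methamphetamine library, at 2.45, 2.31, 1.24, 2.70, 2.54 and 3.42 log2 CPM from 9 to 55 reads, with a change of 0.89 ± 0.43 (SE). In this list 1 of 18 genes lay above saline in every methamphetamine library and 3 of 18 below (Penk, Cdk5r1 and Sirt1, the last pair named after their values were seen), beside 2.44% and 3.58% of all genes. Penk, the enkephalin precursor of indirect-pathway neurons, differed by -0.30 ± 0.17 (SE). Penk is also 1 of the 12 striatal projection neuron markers, all 12 of which had a negative change (median -0.226). In 4 of the 12 (Drd1, Penk, Pde10a and Gng7) every methamphetamine value lay below saline, beside 3.58% of all genes. Drd1, Pde10a and Gng7 were named after their values were seen. In the 5 lists together 0 genes passed the adjusted threshold in limma.

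The CLIP reads on the members were few. Their 34 positions carried 323 reads over the 6 CLIP libraries, and 24 of the 34 had under 10 reads in all. The count filter of the position test was passed by 0 of the 34 and by 10358 of all 147438 positions. Most positions of the whole series thus failed it too, and the share of all positions under 10 reads was not computed. Fos had 6 positions, Fosb 1, Fosl1 1, Fosl2 12, Jun 4, Junb 5 and Jund 5. By GENCODE M21, 13 positions lay in 3′ UTRs with 123 reads, 14 in introns with 96 reads, 2 in 5′ UTRs with 64 reads and 3 in coding exons with 30 reads. A position in another exon of Junb had 8 reads and a position between transcripts of Junb had 2. Before any scaling for depth, the 3′ UTR positions had 36 reads after saline and 87 after methamphetamine. The intronic ones had 30 and 66, and the 5′ UTR ones 43 and 21. Each total pools 3 libraries of unlike depth and shows no spread between them. At the 2 fullest 3′ UTR positions, both in Jun, methamphetamine 1 alone gave 13 of 22 and 12 of 18 methamphetamine reads.

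Jun was the member whose CLIP sum in CPM was higher in every methamphetamine library than in every saline library. The sums were 2, 3, 11, 25, 9 and 9 reads, or 1.90, 7.09, 6.73, 27.5, 9.18 and 15.1 CPM. Before scaling to CPM the groups overlapped, as saline 3 with 11 reads stood above methamphetamine 2 and 3 with 9 each. Methamphetamine 1 stood far above the rest, and the nearest values of the groups were 7.09 and 9.18 CPM. The means were 5.24 ± 2.90 and 17.3 ± 9.35 CPM (SD, n = 3). By library set the mean of Jun was 5.94 CPM in set A and 16.6 CPM in set B, which holds methamphetamine 1 and 3, so the sets differed about as much as the treatments. Methamphetamine 2 with 9.18 CPM was above the set A saline libraries with 1.90 and 6.73 CPM, and methamphetamine 1 and 3 were above the set B saline library with 7.09 CPM. Jun did not pass the count filter, and in the fit without a filter its change was 1.66 on the log2 scale (edgeR adjusted p = 0.8235), within the 5.89% of genes with an unadjusted p under 0.05. The exact two-sided permutation test on the CPM gave p = 0.1, the smallest it allows here. Such separation upward was seen for 1 of 7 members and for 4.93% of the 16910 genes with a counted position.

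The Jun reads sat mostly at the 2 neighbouring 3′ UTR positions shown above. The one with the run of 8 G (chr4:95049835-95049934) had 1, 2, 7, 13, 6 and 3 reads. Its neighbour (chr4:95049735-95049834), with no G run inside its borders, had 1, 1, 3, 12, 3 and 3 reads. The positions adjoin and the run ends just before their border, so they need not be separate sites of binding. In CPM every methamphetamine value lay above every saline value at both positions, with 5.04 against 4.73 as the closest pair at the first (3 reads against 2) and 3.06 against 2.36 at the second (3 reads against 1). Neither position passed the count filter. Such separation upward was seen at 3 of the 34 member positions, the third being a Fosl2 3′ UTR position (chr5:32156702-32156801), and at 3.56% of all 147438 positions. The second position is in the methamphetamine list of the authors' deposited table, with a signal value of 1.91 and a q-value of 1.066e-06, and 67.3% of that list had a lower signal. The signal value is the authors' own, and its scale is not stated.

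Fosl2 had the most reads of the members. It was the only one that passed the count filter as a gene sum, as did 8177 of all 16910 genes with a counted position. Its sums were 19, 6, 32, 21, 32 and 9 reads, or 18.0, 14.2, 19.6, 23.1, 32.7 and 15.1 CPM. The groups overlapped, with 17.3 ± 2.78 CPM after saline and 23.6 ± 8.78 CPM after methamphetamine (SD, n = 3). The change was 0.43 on the log2 scale (edgeR adjusted p = 0.9035), and 0.14 without methamphetamine 2. Among 8177 gene sums tested, 0.00% passed the adjusted threshold in edgeR and 5.25% had an unadjusted p under 0.05 (203 higher, 226 lower), while DESeq2 called 0 with 396 at an unadjusted p under 0.05.

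The Fosl2 sum hid positions that leaned in different ways. The 5′ UTR position shown above (chr5:32136202-32136301) had 10, 5, 20, 3, 10 and 2 reads, or 9.49, 11.8, 12.2, 3.30, 10.2 and 3.36 CPM. Methamphetamine 1 and 3 were low, while methamphetamine 2 lay within the saline range, giving 11.2 ± 1.48 against 5.62 ± 3.97 CPM (SD, n = 3). This position is in the saline list of the authors' deposited table with a signal value of 1.38 and a q-value of 1.883e-06, and 28.9% of that list had a lower signal. Relative to the RNA of the same pool, Fosl2 CLIP was at -2.01 ± 0.55 after saline and -1.45 ± 0.75 after methamphetamine on the log2 scale (SD, n = 3). The difference was 0.56 ± 0.54 (SE; limma adjusted p = 0.9979), in a test where 0.00% of 7031 genes passed the adjusted threshold in limma and 2.97% an unadjusted 0.05. It was 0.22 without methamphetamine 1, 0.35 without saline 3, 0.87 without saline 2 and 0.96 without methamphetamine 3.

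**Figure D3:**
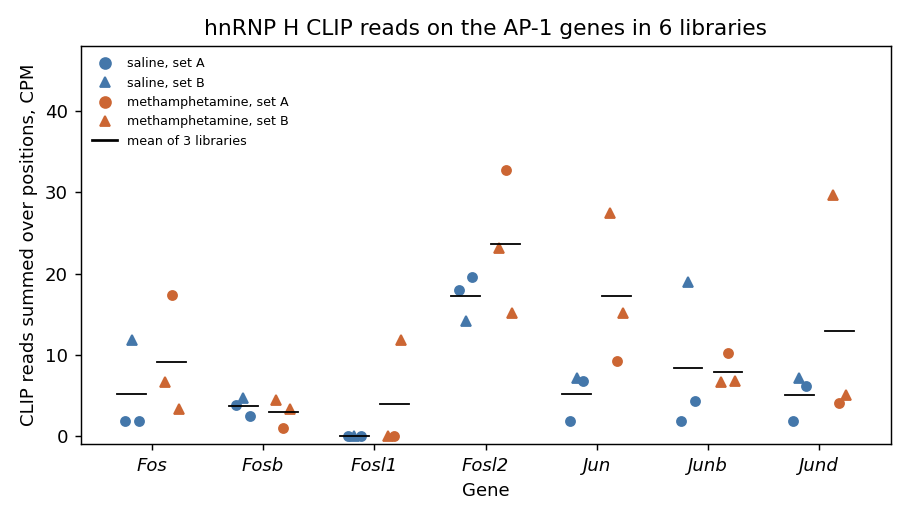
CLIP reads of each gene summed over its positions (y axis, CPM of the reads in all counted positions), 1 point per library, by treatment (colour) and library set (shape), with the mean of 3 libraries as a line. Jun is the gene whose methamphetamine points (9.18 to 27.5 CPM) all lie above its saline points (1.90 to 7.09 CPM), with methamphetamine 1 the highest. Single high libraries set the methamphetamine means of Jund and Fosl1.

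Fos, whose RNA was higher after methamphetamine, had 2, 5, 3, 6, 17 and 2 CLIP reads, or 1.90, 11.8, 1.83, 6.60, 17.3 and 3.36 CPM. The groups overlapped, and methamphetamine 3, the library with the most Fos RNA, had the lowest CLIP value of the 3 methamphetamine libraries. Intronic positions held all 35 of these reads. The position with the most (chr12:85474491-85474590) had 1, 1, 0, 4, 6 and 1 reads. A coding position (Fos, chr12:85474891-85474990) had 0 reads in every library, and a count of 0 allows up to 3 reads per library by counting error alone.

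Fosb had 4, 2, 4, 4, 1 and 2 reads, all at 1 intronic position (chr7:19305297-19305396). Its values of 3.66 ± 1.15 CPM after saline and 2.93 ± 1.73 CPM after methamphetamine (SD, n = 3) overlapped. Fosl1 had 7 reads in methamphetamine 3 and 0 in each of the other 5 libraries, at 1 intronic position (chr19:5454748-5454847). That position is in the methamphetamine list of the authors' deposited table with a signal value of 3.10 and a q-value of 0.01884, and 94.3% of the list had a lower signal. It thus rested on the library in which Fosl1 RNA was lowest (12 reads).

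Junb had 2, 8, 7, 6, 10 and 4 CLIP reads, or 1.90, 18.9, 4.28, 6.60, 10.2 and 6.72 CPM, with a saline library highest and another saline library lowest. Jund had 2, 3, 10, 27, 4 and 3 reads, or 1.90, 7.09, 6.11, 29.7, 4.08 and 5.04 CPM. Methamphetamine 1 alone set its mean of 12.9 ± 14.5 CPM, beside 5.04 ± 2.76 CPM after saline (SD, n = 3). Of these 27 reads 11 fell on the coding position shown above (chr8:70699450-70699549). The same library was the highest for Jun. In the fit without a count filter the changes were 1.31 for Jund, 1.02 for Fos, 0.03 for Junb and -0.36 for Fosb, all with an edgeR adjusted p of at least 0.8899. Fosl1, with reads in methamphetamine 3 alone, had a change of 4.79 in that fit (edgeR adjusted p = 0.8235).

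Set against their RNA, the members carried fewer hnRNP H CLIP reads than the median of the genes with a counted position. Summed over the 6 pools, CLIP reads per 100 RNA-seq reads were 5.70 for Fosl2, 3.88 for Fos, 3.15 for Fosl1, 2.63 for Jun, 1.62 for Fosb, 0.935 for Junb and 0.454 for Jund. The median over 11551 genes with a counted position and at least 60 RNA reads was 10.1. Genes without a counted position have no CLIP sum and were left out, so the medians and shares here hold only for genes with one. Of these genes 35.1% lay below Fosl2, 25.9% below Fos, 6.68% below Junb and 3.26% below Jund. Among the 5233 genes that span at most 25 kb the median was 5.46, with 51.1% of genes below Fosl2, 40.5% below Fos, 35.0% below Fosl1, 30.9% below Jun, 20.1% below Fosb, 12.0% below Junb and 5.94% below Jund. Jund and Junb, the most abundant members per kb, had the lowest ratios. The RNA reads enter the ratio as its denominator.

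**Figure D4:**
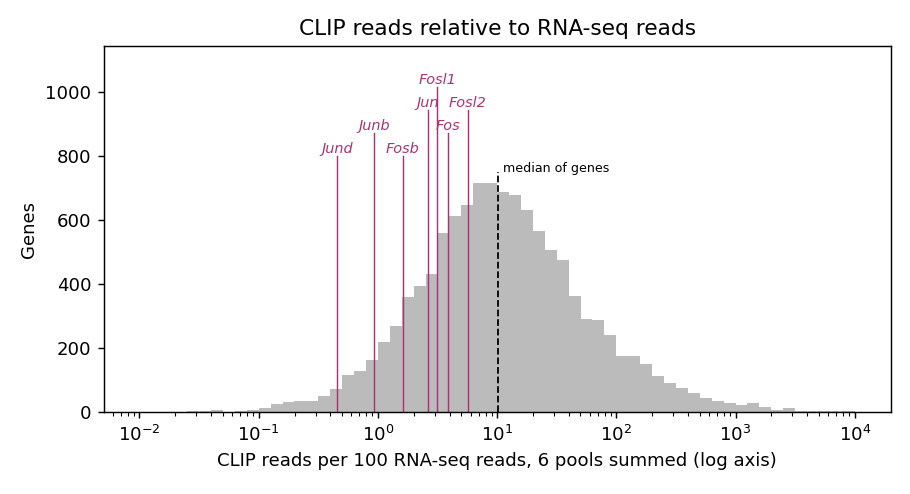
Number of genes with a counted position (y axis) by CLIP reads per 100 RNA-seq reads summed over 6 pools (x axis, log scale). Vertical lines mark the 7 members and a dashed line the median of 10.1. All 7 lines, from Jund at 0.454 to Fosl2 at 5.70, lie to the left of the median.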

How the data were processed

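The deposited RNA-seq table holds log2 CPM, which the labels name as voom output, and its values inverted to whole reads (100% of values within 0.1 reads) after an offset of 0.5 reads. CLIP values are deposited whole-number counts per 100-nt position (172271 lines, 24597 of them exact repeats in name, position and counts). Each position was kept once by its coordinates and strand, which left 147438 distinct positions. Where lines at 1 position differed in gene or counts, the first line was kept. The signal values in the authors' deposited lists were treated as a score of unstated scale, and their q-values come from a test not given in the sources used here. The submitters' processing notes name build mm10 and Trimmomatic, UMI-tools, STAR, bedtools, Subread, featureCounts, limma and edgeR, without roles or versions. Regions and sequences came from GENCODE M21 (GRCm38).

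RNA was tested with limma 3.58.1 (eBayes with trend) over all genes, CLIP counts with edgeR 4.0.16 (TMM, filterByExpr, quasi-likelihood), and CLIP minus RNA per pool with limma (prior count 2), in R 4.3.3, at a Benjamini-Hochberg threshold of 0.05, with DESeq2 1.42.0 as an alternative. Single genes were also compared by exact permutation over the 6 libraries. The fits were tested on simulated data. Alternatives changed the variance trend, low-value filter, scaling, prior count, test, replicate block and library set, and left out each replicate. The within-set values, the comparison with genes of at most 25 kb and the use of unfiltered gene sums were chosen after seeing the data. Replicates are pools of mice. CLIP CPM takes the reads in counted positions as the total. For each list up to 3 genes with the smallest p were eligible to be named. Genes beyond these that are named for groups that did not overlap were added after their values were seen. The genes, lists, markers and library sets were chosen with earlier results of these data known.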

Additional observations from a re-analysis of the deposited data

How the results depend on the processing

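Fos stayed above saline at an unadjusted p under 0.05 (limma, edgeR or DESeq2), with a change of 0.67 to 0.99 in all 14 alternatives, and 0 genes passed the adjusted threshold in any of them. Fosl1 stayed negative (-1.45 to -0.45). Jund (-0.02 with all libraries) was 0.06 with plain library totals and with a prior count of 5, and 0.20 with the library set as covariate, where Fosl2 (-0.21) was 0.06. With each replicate left out in turn, Jund ranged from -0.27 to 0.17, Fosl2 from -0.60 to 0.09 and Fosb from -0.28 to 0.28. Jun then ranged from -0.01 to 0.33 and Junb from -0.05 to 0.48. The number of members whose groups did not overlap ranged from 1 to 3 (3 without saline 2, 2 without methamphetamine 1). Groups separate more readily with fewer libraries, and the share of all genes was not computed in these settings, so these counts cannot be read as a result about the members. Without a count filter 414 of 140449 CLIP positions passed the adjusted threshold, against 0 of 10358 with it (edgeR; 347 at an unadjusted p under 0.05, and DESeq2 0 with 345). The cause of these shifts was not tested. Same-numbered saline and methamphetamine libraries deviated from their group means with correlations of -0.346, -0.821 and -0.489. Each such pair joins a set A library with a set B library. The correlations therefore cannot tell whether same-numbered pools were handled together. With the replicate block Fos was at 0.88, with 0 adjusted calls and 144 genes at an unadjusted p under 0.05. At a CLIP depth of 423057 to 1635338 reads, 6 of 7 members were under the count filter. Of all 16910 genes with a counted position, 8177 passed that filter. Fosl2, which passed it, ranged from 0.14 to 0.64 in CLIP and from 0.22 to 0.96 relative to RNA.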
